A study of Rattus norvegicus with 46 samples.

Results

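Glutathione transferases and other enzymes that handle foreign chemicals were followed in frontal lobe of rats given the insecticide chlorpyrifos. The genes were Gstm1, Gstm2, Gstm5, Gstp1, Gsta4, Gstt1, Mgst1, Mgst3, Por and Ephx1, chosen by name, and their probe sets were those whose single symbol in the platform table was 1 of these 10. They were represented by 11 of 15866 probe sets, since Por had 2, and 10 of the 11 were bright enough to be tested among 11106. All animals were male Fisher 344 rats, 11 to 12 weeks old, and they had a single dose of vehicle or chlorpyrifos and were killed 96 hours later, in 3 separate experiments called A, B and C. Total RNA from a small piece of frontal lobe of each animal was read on an Affymetrix rat array, and 39 of 46 arrays were used, 1 per animal. The values of the other 7 arrays were uncorrelated with the rest, probe set by probe set. One line of the labels of the B vehicle animals names 1 mg/kg, and their titles, which name a control, were followed. Experiment A held 3 vehicle animals, 3 at 1 mg/kg, 5 at 10 mg/kg and 3 at 50 mg/kg. Experiment B held 4 vehicle animals, 3 at 0.5 mg/kg, 1 at 5 mg/kg and 3 at 30 mg/kg. Experiment C held 3 vehicle animals, 4 at 1 mg/kg, 3 at 5 mg/kg and 4 at 10 mg/kg.

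Glutathione transferases join the thiol of glutathione to electrophiles, which makes the products soluble and ready for export, and rodents carry several classes of them that differ in substrate. The soluble enzymes here belong to the mu class (Gstm1, Gstm2, Gstm5), the pi class (Gstp1), the alpha class (Gsta4, which acts on the lipid aldehyde 4-hydroxynonenal) and the theta class (Gstt1), while Mgst1 and Mgst3 sit in membranes and also reduce lipid hydroperoxides. Por passes electrons from NADPH to cytochrome P450 enzymes, the enzymes that turn chlorpyrifos into its oxon, and Ephx1, the microsomal epoxide hydrolase, opens epoxides. In liver many of these genes are induced through antioxidant response elements bound by Nfe2l2, and in brain the enzymes are known mainly from glia, blood vessels, choroid plexus and meninges.

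The upstream sequences of these genes differed in whether they held the core letters of that element. RefSeq promoter windows of build GRCr8, from 250 bases before to 50 bases after each annotated start, were found for 9 of the 10 genes, in 10 windows because Ephx1 has 2 starts. The antioxidant core TGACNNNGC, searched on both strands, was present in 3 of the 10 windows and in 12.1% of 33469 windows of all genes. The core GCGTG, through which the aryl hydrocarbon receptor acts, was present in 5 of the 10 windows and in 29.7% of all windows. The 3 windows with the antioxidant core are printed with each match in capitals, and that of Mgst1, the member with the widest dose difference below, is printed as one without a match to either core. Gstp1 lies at chr1:210769656-210769955 on the minus strand, Gstm5 at chr2:198219519-198219818 on the plus strand, the Ephx1 window at chr13:95263068-95263367 on the minus strand and Mgst1 at chr4:172760680-172760979 on the plus strand.
Gstp1: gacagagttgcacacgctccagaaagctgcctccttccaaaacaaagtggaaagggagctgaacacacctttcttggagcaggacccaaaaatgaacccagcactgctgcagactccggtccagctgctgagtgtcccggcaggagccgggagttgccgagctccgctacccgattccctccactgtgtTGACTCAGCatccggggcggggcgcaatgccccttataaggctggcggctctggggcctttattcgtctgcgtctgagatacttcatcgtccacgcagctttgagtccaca
Gstm5: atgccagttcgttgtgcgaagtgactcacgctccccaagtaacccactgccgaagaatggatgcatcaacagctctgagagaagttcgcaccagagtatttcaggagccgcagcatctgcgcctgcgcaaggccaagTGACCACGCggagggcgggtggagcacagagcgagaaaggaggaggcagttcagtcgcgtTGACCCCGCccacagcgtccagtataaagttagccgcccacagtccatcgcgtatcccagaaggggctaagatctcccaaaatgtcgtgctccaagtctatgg
Ephx1: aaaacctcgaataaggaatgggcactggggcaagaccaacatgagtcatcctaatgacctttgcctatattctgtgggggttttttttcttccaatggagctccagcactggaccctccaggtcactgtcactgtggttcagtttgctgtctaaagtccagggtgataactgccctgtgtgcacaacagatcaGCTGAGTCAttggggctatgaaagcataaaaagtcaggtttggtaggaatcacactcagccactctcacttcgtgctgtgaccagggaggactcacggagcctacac
Mgst1: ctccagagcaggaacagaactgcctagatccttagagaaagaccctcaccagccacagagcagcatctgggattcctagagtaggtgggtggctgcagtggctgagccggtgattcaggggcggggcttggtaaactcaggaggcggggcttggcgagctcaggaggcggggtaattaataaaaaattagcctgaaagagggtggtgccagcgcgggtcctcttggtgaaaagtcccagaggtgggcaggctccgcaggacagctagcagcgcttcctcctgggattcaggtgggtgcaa
The Gstp1 match, TGACTCAGC, starts 61 bases before the start site on the sense strand. Gstm5 holds TGACCACGC and TGACCCCGC on the sense strand, 113 and 53 bases before its start, and the first of these overlaps a GCGTG core read on the other strand. The Ephx1 match is printed as GCTGAGTCA because it lies on the antisense strand, 57 bases before the start. These are matches of letters and not measured sites.

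In correlation, raw intensity and control ratios the arrays were alike apart from 1 dim array and 1 array with high control ratios. Pairwise Pearson correlations of log2 intensity ran between 0.935 and 0.979 over the 39 arrays, and medians of raw intensity between 112.2 and 285.6, the lowest in the lone animal of B that had 5 mg/kg. The 1 mg/kg animal 1 of experiment C had a ratio of 4.72 between the 3′ and 5′ actin control probe sets, against 2.15 or less elsewhere, and a GAPDH ratio of 2.42, against 1.34 or less elsewhere. In that array 113 probe sets lay more than 1.5 log2 units under their group mean, against at most 30 in another array. Neuronal transcripts were present in every piece. Slc17a7, the vesicular glutamate transporter of cortical excitatory neurons, lay between 11.04 and 12.86 on the log2 scale and Camk2a between 10.12 and 12.92. The pieces differed in what else they held. Summed intensity ran between 581.7 and 14029 for 4 of 8 listed hypothalamic peptides and between 7615 and 47184 for 14 of 16 striatal markers. It ran between 2482 and 24741 for 8 of 13 choroid plexus markers and between 7096 and 22709 for 17 of 18 meningeal and fibroblast markers.

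Levels are given as log2 normalised intensity and are compared only within a probe set. Over the 39 arrays the tested members spanned between 0.90 log2 units (Gstm5) and 3.00 log2 units (Por 1368213_at). Spread between animals of the same group was widest for Por 1368213_at, with a pooled SD of 0.48, then Gstm2 at 0.37, Gstp1 at 0.33 and Mgst1 at 0.32. It was narrowest for Gstm1 and Mgst3, both at 0.16. Gstt1 could not be followed: its raw intensity lay between 5.3 and 13.1, and it was under the floor of 10.72 scaled units in 32 of the 39 arrays.

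**Figure D1:**
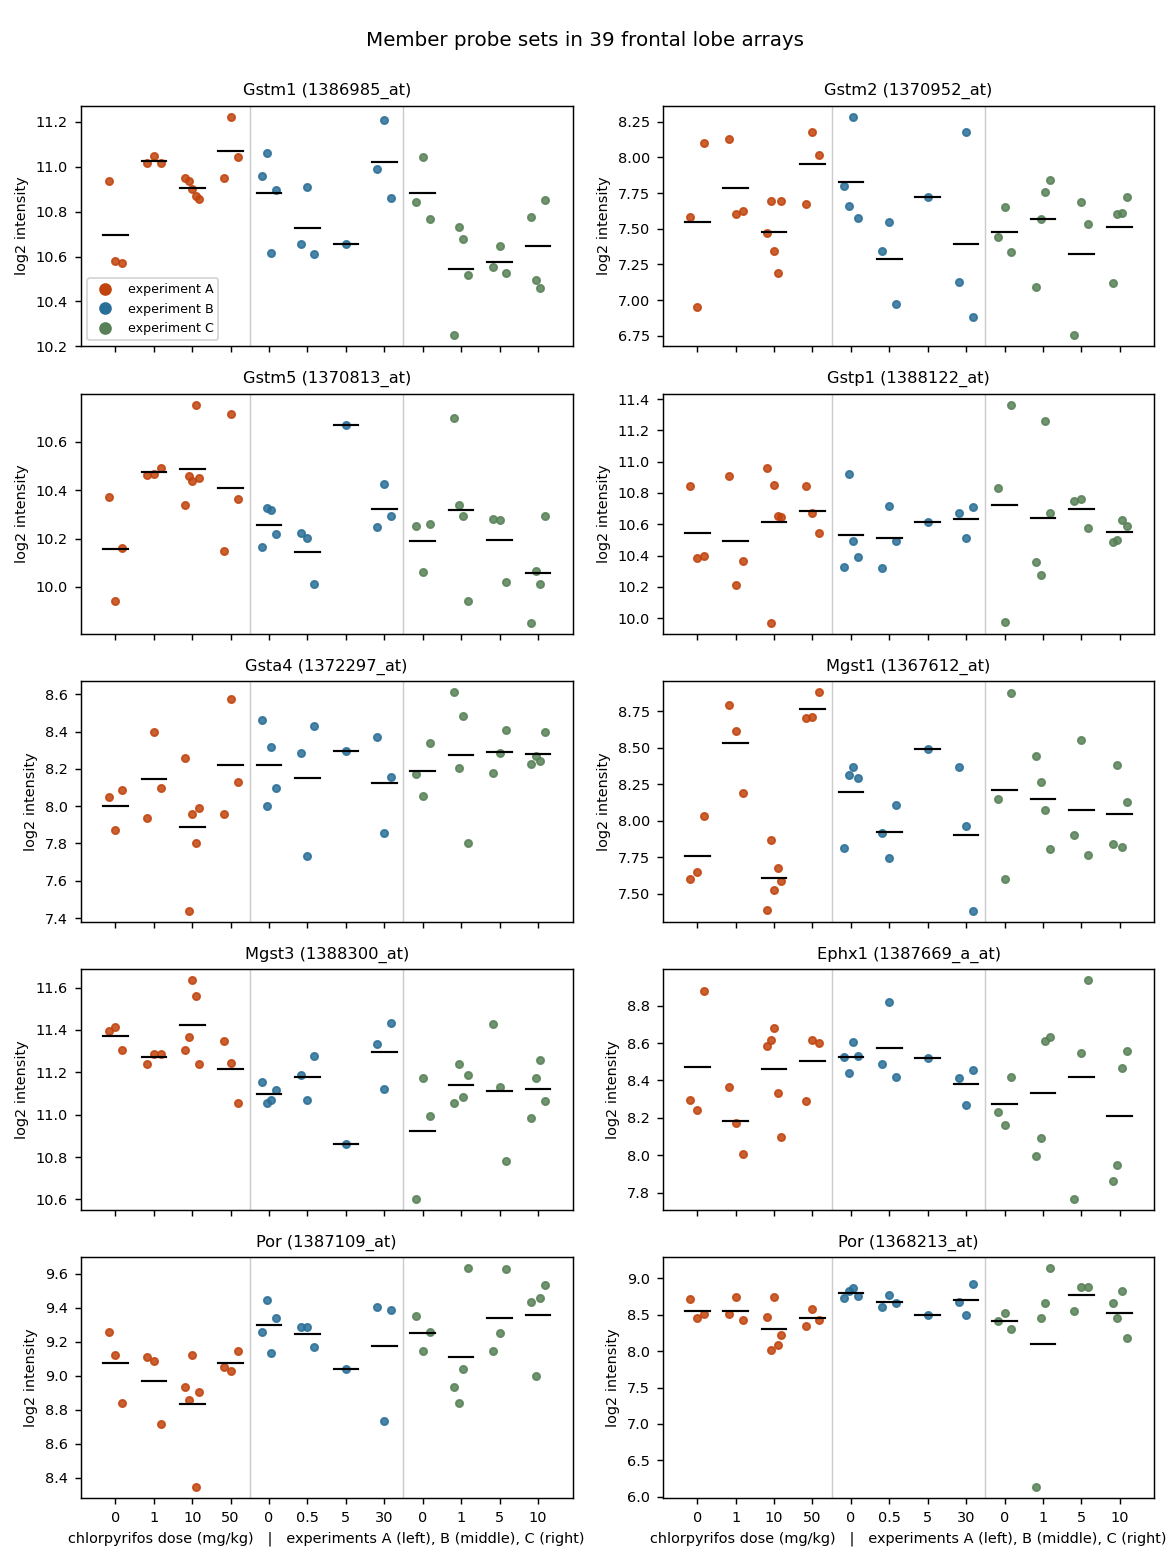
Log2 normalised intensity of the 10 tested probe sets (y axis) in each of 39 arrays, by experiment (colour) and chlorpyrifos dose in mg/kg (x axis, 0 is vehicle). Points are animals and black bars are group means; Mgst1 at 50 mg/kg lay between 8.70 and 8.88, above its vehicle animals of experiment A at 7.60 to 8.03, while for most probe sets the groups overlapped.

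No member passed the test at any dose. Each dose was compared with vehicle by a limma fit that also held the experiment, and p-values were adjusted over all 11106 probe sets by the Benjamini-Hochberg method at a threshold of 0.05. None of the 60 dose effects of the 10 probe sets passed, with a lowest adjusted p of 0.226, and 58 of the 60 were under 0.5 log2 units in size. Among all probe sets the test called 0.018% at 50 mg/kg and 0% at 0.5, 1, 5, 10 and 30 mg/kg. An unadjusted p under 0.05 was met by Mgst1 at 50 mg/kg, where 7.99% of all probe sets met it, by Gstm5 at 1 mg/kg (2.54% of all) and by Gstm2 at 0.5 mg/kg (7.62% of all). No member met it at 5, 10 and 30 mg/kg, where 2.48%, 2.68% and 9.25% of all probe sets did. Neither the trend with log2(dose + 1) nor the test for a change at any dose called a member, and both called 0% of all probe sets (7.66% and 6.19% at an unadjusted p under 0.05). The lowest adjusted p over the members was 0.795 for the trend, in Gstm1, and 0.472 for a change at any dose, in Mgst1.

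Taken dose by dose, the 10 probe sets had no common direction. At 50 mg/kg 8 of 10 were above vehicle with a median difference of 0.12, against 51.5% and 0.0056 over all probe sets. At 0.5 mg/kg 8 of 10 were below vehicle with a median of -0.05, and at 10 mg/kg 8 of 10 were below with a median of -0.03. Of all probe sets 50.9% and 50.3% were above vehicle at these 2 doses. At 1, 5 and 30 mg/kg the numbers above vehicle were 5, 7 and 4 of 10, against 48%, 50.1% and 51.4% of all probe sets. Por counts with 2 probe sets here. By gene 7 of 9 were below at 0.5 and at 10 mg/kg, and 8 of 9 above at 50 mg/kg. When each dose was set against the vehicle animals of its own experiment, 43 of 90 differences were above 0 and 47 below, and none passed, with a lowest adjusted p of 0.139. Over all probe sets these within-experiment tests called 0.036% at 50 mg/kg in A, 0.009% at 10 mg/kg in A, 0.018% for the lone 5 mg/kg animal in B and 0% elsewhere. At an unadjusted p under 0.05 stood 9 of the 90, which came from Gstm1, Gstm5 and Mgst1 alone. In A these were 3 of 10 at 1 mg/kg, where 3.21% of all probe sets met that mark, 1 at 10 mg/kg (2.89%) and 2 at 50 mg/kg (9.56%). In B 1 was met by the lone and dim 5 mg/kg array (7.21%), whose 10 of the 90 tests have no replicate and take their spread from the other groups, and none at 0.5 mg/kg (6.68%) or 30 mg/kg (10.2%). In C 1 each was met at 1 mg/kg (6.69%) and 5 mg/kg (6.52%) and none at 10 mg/kg (6.63%).

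Full separation of dosed from vehicle animals of the same experiment was seen in few cases. In A at 1 mg/kg Mgst1, Gstm5 and Gstm1 lay wholly above vehicle, as did 4.79% of all probe sets, and Mgst3 wholly below (5.79%). In A at 50 mg/kg Mgst1 and Gstm1 were wholly above (8.35%) and none below (8.92%). In A at 10 mg/kg no member was separated, while 2.12% of all probe sets were above and 1.62% below. In B at 0.5 mg/kg no member was wholly above (4.41%) and Gstm2 was wholly below (3.9%), and at 30 mg/kg no member was separated (6.05% above and 4.7% below). In C at 1 mg/kg Gstm1 was wholly below (2.21%) and none above (2.43%). In C at 5 mg/kg 1 Por probe set was wholly above (5.91%) and Gstm1 wholly below (5.6%), and at 10 mg/kg no member was separated (2.97% above and 2.98% below).

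**Figure D2:**
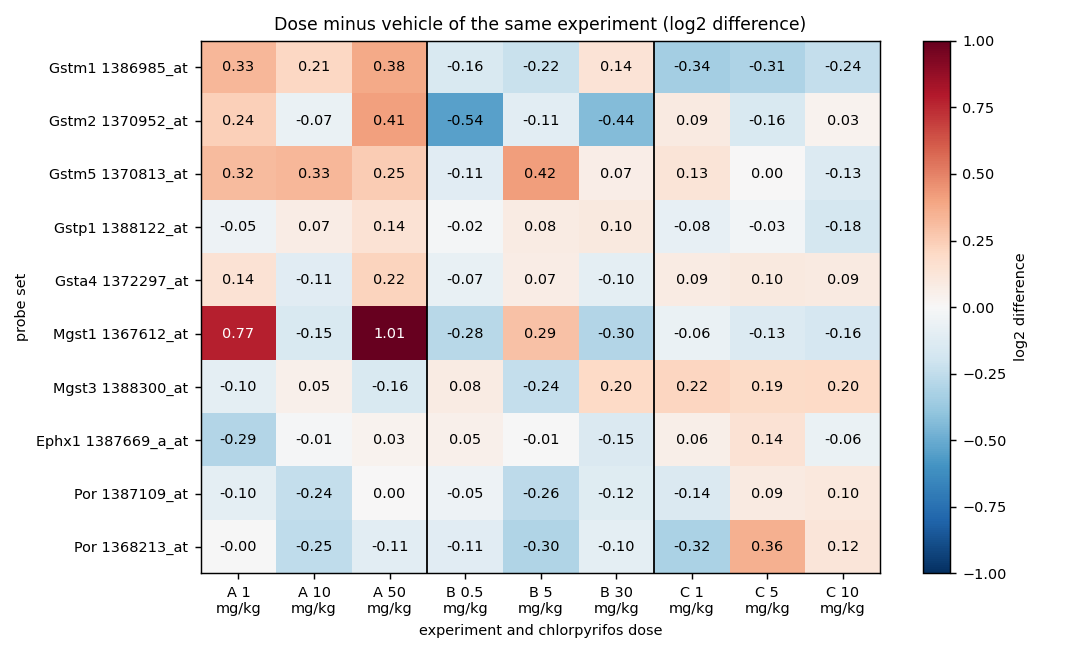
Log2 difference between each dose and the vehicle animals of the same experiment for the 10 tested probe sets (colour and printed number, red above vehicle and blue below). Mgst1 in experiment A held the widest differences, 1.01 at 50 mg/kg and 0.77 at 1 mg/kg, with -0.15 at 10 mg/kg, and Gstm1 was above vehicle at all 3 doses of A and below it at all 3 doses of C; none of the 90 values passed the test.

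Mgst1, the membrane-bound transferase of the endoplasmic reticulum and outer mitochondrial membrane, had the widest dose difference. The 50 mg/kg animals of experiment A had 8.70, 8.71 and 8.88, against 7.60, 7.65 and 8.03 in vehicle animals of A. All 3 dosed animals lay above all 3 vehicle animals. The fitted difference was 0.89 ± 0.25 (SE), or 1.86-fold, with a 95% interval between 0.40 and 1.39 and a limma adjusted p of 0.226. Against its own vehicle animals alone it was 1.01 ± 0.25 with an adjusted p of 0.139. In a fit without experiment C it was 1.00 with an adjusted p of 0.0282, the only fit tried in which a dose effect of a member passed. With each animal left out in turn, the fitted difference ran between 0.82 and 1.00. Its limma adjusted p then ran between 0.114 and 0.836.

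The middle dose of the same experiment did not share that level. At 10 mg/kg the 5 animals ran between 7.39 and 7.87 with a median of 7.59, within or under the vehicle range. At 1 mg/kg the animals had 8.79, 8.62 and 8.19, again all above the vehicle animals. The 1 mg/kg difference was 0.77 ± 0.25 in A and -0.06 ± 0.24 in C, where dosed animals ran between 7.80 and 8.44 and vehicle animals between 7.60 and 8.87. The difference between these 2 effects was 0.84 ± 0.34, with an adjusted p of 0.616 in limma, and it called 0% of all probe sets (7.35% at an unadjusted p under 0.05). It was 0.50 without vehicle animal 3 of C, the highest of its group, and 0.50 to 1.14 over all animals left out in turn. At 30 mg/kg in B Mgst1 had 8.37, 7.96 and 7.38, against 7.81, 8.31, 8.37 and 8.29 in vehicle animals, and the groups overlapped.

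Oxytocin transcript differed between the same pieces. At 50 mg/kg Oxt had 7.93, 11.60 and 12.17, against 8.68, 5.58 and 6.21 in vehicle animals of A, and the summed intensity of the 4 measured hypothalamic peptides ran between 1402 and 14029, against 682.1 and 1457. In the 1 mg/kg animals Oxt had 7.22, 12.01 and 6.66, beside Mgst1 levels of 8.79, 8.62 and 8.19. In the vehicle group of C, animal 3 had an Oxt level of 11.72 and an Mgst1 level of 8.87, against at most 6.20 and 8.15 in the other 2 animals. Thus the 4 pieces with Oxt above 11 all had Mgst1 of at least 8.62. The 50 mg/kg animal with Oxt of 7.93, inside the vehicle range, also had Mgst1 of 8.70, and the 1 mg/kg animal with the second highest Mgst1 of experiment A's dosed groups, 8.79, had Oxt of 7.22. All 4 measured peptides were above vehicle at 50 mg/kg and 1 of them, Pmch, passed the test. All 14 measured striatal markers were above vehicle too, with a median of 0.51, and none passed. Other cell types differed between these pieces as well. The summed intensity of 17 of 18 astrocyte markers ran between 53508 and 58286 at 50 mg/kg, wholly above the 44383 to 49112 of vehicle animals of A, with 13 of 17 above vehicle and a median of 0.17. The choroid plexus sum, between 4005.5 and 4699.5, was also wholly above the 3135 to 3958 of vehicle animals, although 3 of its 8 markers were above vehicle in the pooled fit. The median was 0.28 for meningeal markers (14 of 17 above) and 0.84 for olfactory bulb markers (3 of 3 above), and no marker of these 4 lists passed. The part of the anatomy of the pieces in the Mgst1 difference was not tested. In these bulk pieces more cells of a type and more RNA per cell cannot be told apart.

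**Figure D3:**
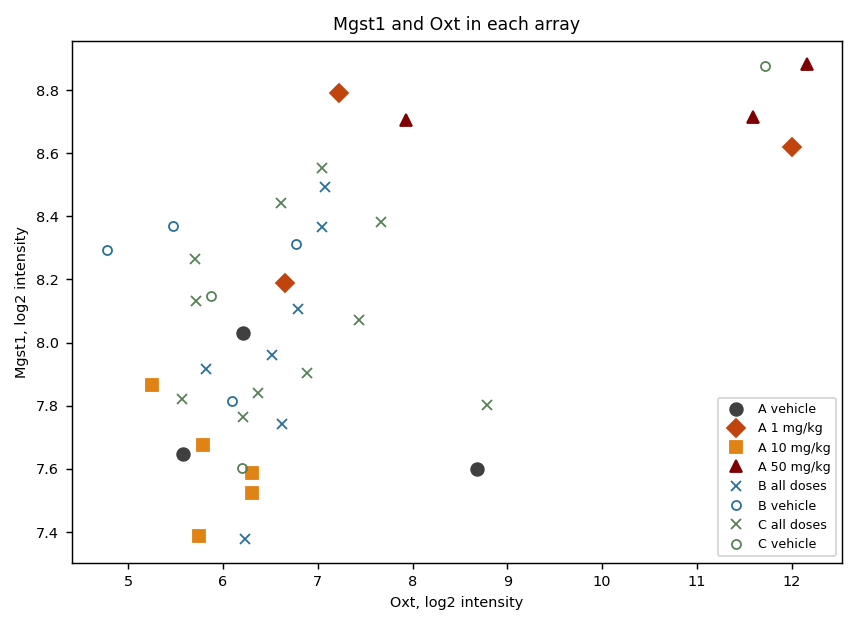
Mgst1 (y axis) against Oxt (x axis), both as log2 normalised intensity, in each of the 39 arrays; symbols give the dose groups of experiment A and dosed or vehicle animals of B and C. The 4 arrays with Oxt above 11, of which 2 were at 50 mg/kg, 1 at 1 mg/kg and 1 was a vehicle animal of C, had Mgst1 between 8.62 and 8.88.

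Gstm1, a mu-class enzyme abundant in brain, lay on opposite sides of vehicle in experiments A and C. At 1 mg/kg in A the animals had 11.02, 11.05 and 11.02, against 10.93, 10.58 and 10.57 in vehicle animals, so that all dosed animals were above. At 1 mg/kg in C they had 10.25, 10.73, 10.68 and 10.52, against 10.84, 11.04 and 10.77 in vehicle animals, so that all were below. The dosed animals of C also lay wholly below those of A, for Gstm1 and Mgst3, as did 7.28% of all probe sets, with 9.32% above. Of all probe sets 0.459% were separated in opposite directions in this way at 1 mg/kg, and 0.207% at 10 mg/kg, where no member was. The effect in A minus that in C was 0.67 ± 0.17, with an unadjusted p of 0.00052 and a limma adjusted p of 0.387, so it did not pass. The lowest C animal is the one with the high actin ratio, and without it the difference was 0.57 with an adjusted p of 0.495.

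The other doses of these 2 experiments kept the same sides. At 50 mg/kg in A Gstm1 had 10.95, 11.22 and 11.04, against the same vehicle animals, and the lowest dosed animal was barely above the highest vehicle animal. At 10 mg/kg in A the 5 animals ran between 10.86 and 10.95 and overlapped with vehicle. At 5 mg/kg in C the animals had 10.56, 10.65 and 10.53, all below the C vehicle animals. At 10 mg/kg in C they had 10.78, 10.50, 10.46 and 10.85, which overlapped with vehicle and lay wholly below the 10 mg/kg animals of A, as did 5.11% of all probe sets (4.95% lay above). The within-experiment differences in A were 0.33, 0.21 and 0.38 at 1, 10 and 50 mg/kg and in C -0.34, -0.31 and -0.24 at 1, 5 and 10 mg/kg, each set sharing 1 group of 3 vehicle animals. The vehicle animals themselves differed by 0.19 ± 0.13 between C and A, which did not pass either (adjusted p = 0.454).

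Gstm5, another mu-class enzyme, was above vehicle by 0.03 to 0.26 at 5 of the 6 doses and at -0.15 ± 0.14 at the lowest, 0.5 mg/kg, and none of these passed. At 1 mg/kg in A it had 10.46, 10.47 and 10.49, against 10.37, 9.94 and 10.16 in vehicle animals, and all dosed animals were above. At 1 mg/kg in C it had 10.70, 10.34, 10.30 and 9.94, against 10.25, 10.06 and 10.26, and the groups overlapped. The pooled difference was 0.26 ± 0.10 with a 95% interval between 0.05 and 0.46, and its adjusted p rounded to 1.00. At 10 mg/kg the effect in A minus that in C was 0.46 ± 0.19 (adjusted p = 0.709), a test that called 0% of all probe sets (6.62% at an unadjusted p under 0.05), and all 4 animals of C were below all 5 of A.

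Gstm2, also of the mu class, had its widest difference at the lowest dose. At 0.5 mg/kg in B it had 7.34, 7.55 and 6.97, against 7.80, 7.66, 8.29 and 7.58 in vehicle animals, and all dosed animals were below. The difference of -0.55 ± 0.25 had an adjusted p of 0.631. At 30 mg/kg in the same experiment the animals had 7.12, 8.18 and 6.88, a difference of -0.44 ± 0.25 (adjusted p = 0.605), with 1 animal inside the vehicle range. The 30 mg/kg value was -0.83 without dosed animal 3 and -0.19 without dosed animal 4. In A at 50 mg/kg Gstm2 lay on the other side of vehicle, with 7.67, 8.18 and 8.01, against 7.59, 6.95 and 8.10 in vehicle animals, a difference of 0.41 ± 0.25 (adjusted p = 0.725) with overlap. Meningeal and fibroblast markers stood at 8917 to 16281 units at 0.5 mg/kg, against 11923 to 22709 in vehicle animals, summed over 17 of 18 genes. At 0.5 mg/kg 14 of the 17 had a difference below 0, with a median of -0.19, and none passed. The sum at 50 mg/kg was 15408 to 21824, against 11704 to 19461 in vehicle animals of A, with 14 of 17 above vehicle. Their part in the Gstm2 differences was not tested.

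The 3 mu-class genes are neighbours on rat chromosome 2 in the RefSeq annotation, within a cluster that also holds Gstm3, Gstm4, Gstm6 and Gstm7. Probe sets for such near copies may share signal, which these files could not resolve. Their values did not run together here. Over the 39 arrays, with the mean of each group removed, Gstm1, Gstm2 and Gstm5 correlated with each other between 0.08 and 0.27.

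Gstp1, the pi-class enzyme typical of oligodendrocytes and other glia in brain, showed no dose difference beyond its spread. The 50 mg/kg animals had 10.84, 10.67 and 10.54, against 10.85, 10.38 and 10.40 in vehicle animals. The difference was 0.09 ± 0.22, with a 95% interval between -0.36 and 0.54 and an adjusted p of 0.963. The widest spread was inside 1 vehicle group, that of C, with 10.83, 9.98 and 11.36. Gsta4 differed from vehicle by 0.25 ± 0.18 at 50 mg/kg (adjusted p = 0.779) and by no more than 0.11 in size at the other doses. The 50 mg/kg value was 0.08 without dosed animal 3 and 0.38 without dosed animal 2.

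Mgst3, the other membrane-bound transferase, lay lower in every vehicle animal of C and of B than in those of A, while C and B overlapped. It had 10.60, 11.17 and 10.99 in C and 11.15, 11.05, 11.07 and 11.12 in B, against 11.40, 11.41 and 11.30 in A. All vehicle animals of B and of C were below all of A, as were 5.51% and 12.9% of all probe sets, with 4.88% and 12.2% above. The difference between C and A was -0.45 ± 0.13 with an adjusted p of 0.0648 (1.59% of all probe sets called, and 17.7% at an unadjusted p under 0.05). Between B and A it was -0.27 ± 0.12 with an adjusted p of 0.494 (0.117% called, and 8.71% unadjusted). The F test over the 3 vehicle groups gave an adjusted p of 0.0617, where 7.8% of all probe sets passed (22.6% unadjusted). That test passed when arrays were weighted by quality (adjusted p = 0.018). It also passed without C vehicle animal 2 (adjusted p = 0.0301), and without 5 mg/kg animal 1 or 4 of C (adjusted p = 0.0377 and 0.0351). C vehicle animal 1, at 10.60 the lowest of its group, is labelled as a first repeat. Without it the difference between C and A was -0.29 with a limma adjusted p of 0.309. The widest pooled dose difference of Mgst3 was 0.25 ± 0.12 at 30 mg/kg (adjusted p = 0.538). Dosed animals had 11.33, 11.12 and 11.43 and overlapped with the vehicle animals of B.

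Between C and B vehicle animals no member passed, where 10.3% of all probe sets did (25.3% unadjusted), though Ephx1 and 1 Por probe set lay wholly below in C, as did 11.5% of all probe sets (12.7% lay above).

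Ephx1 had no dose difference wider than 0.13 in size in the pooled fit. At 50 mg/kg it had 8.29, 8.62 and 8.60, against 8.29, 8.24 and 8.88 in vehicle animals, a difference of 0.07 ± 0.20 with a 95% interval between -0.34 and 0.47. Its spread was widest in the 5 mg/kg animals of C, with 7.77, 8.55 and 8.94 (SD 0.60), against SDs between 0.07 and 0.35 in the other groups of more than 1 animal. The lowest of these is also the animal with the lowest Gstm2 level of all arrays, 6.75, and its meningeal marker sum was 9125, against 21964 in the animal at 8.94.

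Por had 2 probe sets that stood far apart in 1 array and followed each other only in part elsewhere. Probe set 1387109_at differed from vehicle by 0.05 ± 0.17 at 50 mg/kg, with 9.05, 9.03 and 9.14 in dosed animals, against 9.26, 9.12 and 8.84 in vehicle animals. The other, 1368213_at, differed by -0.12 ± 0.33, with 8.34, 8.58 and 8.43, against 8.72, 8.45 and 8.51. Neither had an adjusted p under 0.94 at any dose. In 1 mg/kg animal 1 of experiment C probe set 1368213_at stood at 6.14, a raw intensity of 56.5, while 1387109_at stood at 8.93, a raw intensity of 477.5. Everywhere else 1368213_at was between 8.01 and 9.14. That array is the one with the actin ratio of 4.72. With group means removed the 2 probe sets correlated at 0.40 over 39 arrays and at 0.47 without that array. Only 1368213_at was wholly above vehicle at 5 mg/kg in C (5.91% of all probe sets). It was also wholly above in B vehicle animals against A (4.88%) and wholly below in C against B (11.5%), while 1387109_at overlapped each time.

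**Figure D4:**
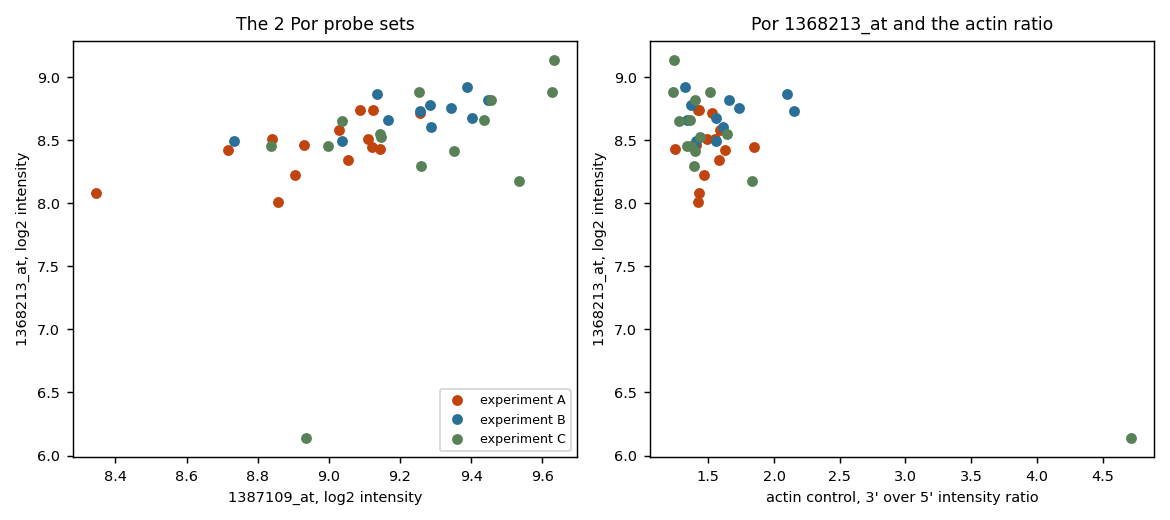
Left, the 2 Por probe sets against each other as log2 normalised intensity; right, Por 1368213_at (y axis, log2 normalised intensity) against the 3′ over 5′ intensity ratio of the actin control (x axis), 1 point per array coloured by experiment. The array at 6.14, from a 1 mg/kg animal of experiment C, has an actin ratio of 4.72, and the other 38 arrays have ratios of 2.15 or less.

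Differences between pieces of the same group followed markers of cell types for 3 members. These values are deviations from the mean of the array's own group, so neither dose nor experiment enters them, and each marker list was summarised by the mean standardised deviation of its measured genes. The 39 points share normalisation, and the single 5 mg/kg array of B stands at 0. Gstm2 correlated with the meningeal and fibroblast list at 0.83 (Pearson) over 39 arrays and at 0.84 without the 2 arrays farthest out. It also correlated with microglia markers at 0.57 and with endothelial markers at 0.50. Its 3 most similar genes were Vim, an intermediate filament gene, at 0.86, Bmp6, a secreted growth factor, at 0.85 and Ogn, a matrix proteoglycan, at 0.84. Ephx1 correlated with the meningeal and fibroblast list at 0.67, or 0.59 without the 2 farthest arrays. With choroid plexus markers it correlated at 0.56, or 0.49 without those arrays. Its nearest genes were Islr at 0.77, Atp1b3 at 0.73 and Il6st at 0.72. Gstm2 and Ephx1 correlated with each other at 0.53, the highest of the 45 pairs of member probe sets, whose median was 0.04.

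**Figure D5:**
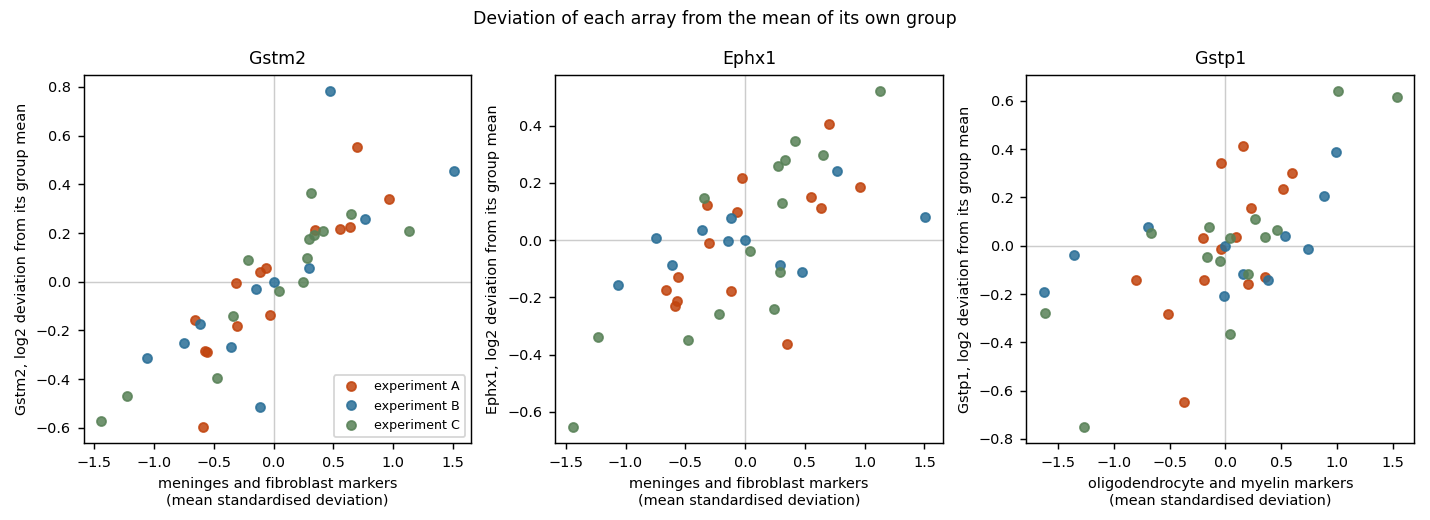
Log2 deviation from the group mean of Gstm2, Ephx1 and Gstp1 (y axes) against the mean standardised deviation of a marker list (x axes) in 39 arrays coloured by experiment. Pearson correlations are 0.83 for Gstm2 and 0.67 for Ephx1 with meningeal and fibroblast markers and 0.63 for Gstp1 with oligodendrocyte and myelin markers.

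Gstp1 correlated with the oligodendrocyte and myelin list, measured by 12 of 18 genes, at 0.63 and at 0.62 without the 2 farthest arrays. With striatal markers it correlated at 0.46, or 0.59 without those arrays, and with microglia markers at -0.47, or -0.35 without them. Its nearest genes were Rap1a, a small GTPase, at 0.84, Mcam, an adhesion molecule, at 0.84 and Gpr37, a receptor of myelinating cells, at 0.80. The highest Gstp1 levels, 11.36 in a C vehicle animal and 11.26 in a 1 mg/kg animal of C, were in arrays with summed myelin markers of 48785 and 43929, while a C vehicle animal with 45269 had 10.83. Over all 39 arrays the other members lay under 0.5 in size (Pearson) against every marker list. Gstm1 stood at 0.48 with striatal markers, or 0.45 without the 2 farthest arrays. With the 3 measured olfactory bulb markers it stood at -0.40, or -0.54 without those arrays. Por 1368213_at stood at 0.49 with astrocyte markers, or 0.23 without its 2 farthest arrays. Mgst1, with Card19 at 0.68 as its nearest gene, correlated with the meningeal list at -0.05 and with the myelin list at 0.14. It correlated with hypothalamic peptides at 0.38, or 0.23 without the 2 farthest arrays. With olfactory bulb markers it stood at 0.37 and with neuron markers at -0.32. Por 1387109_at was nearest to Slco1c1, a transporter of the blood-brain barrier, at 0.74. For Por 1368213_at the 3 nearest genes, Rac1, Rnf187 and Akirin2, stood between 0.93 and 0.94 with the array of high actin ratio and between 0.82 and 0.84 without it. The nearest genes of Gstm1 were Dbnl at 0.78, Tsc22d4 and Ralgds, those of Mgst3 were Apbb1 at 0.71, Cib2 and Lsm8, those of Gstm5 were Iscu at 0.70, Mrps26 and Magoh, and those of Gsta4 were Mkln1 at 0.62, Ly6l and Nup37.

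The rest of the pathway was described with 5 lists of other genes. They named 138 genes, of which 106 had a probe set of a single symbol and 79 were bright enough to be tested. None of the 79 passed at any dose or for the trend. At 0.5 mg/kg 48 of the 79 were below vehicle, with a median difference of -0.06, where 50.9% of all probe sets were above. The numbers above vehicle were 49, 39, 46 and 41 at 1, 5, 10 and 30 mg/kg. Of all probe sets 48%, 50.1%, 50.3% and 51.4% were above at these doses. At 50 mg/kg 53 of the 79 were above with a median of 0.07, against 51.5% and 0.0056 over all probe sets. In the list of other glutathione transferases 7 of 12 were above. That list also held genes not named as transferases, Clic4, Eef1g and Ptges among them. Clic4 had its lowest p, at 0.37 ± 0.20 (adjusted p = 0.683). Among genes of glutathione synthesis and recycling 14 of 18 were above, with Txnrd1, a thioredoxin reductase, at 0.23 ± 0.10 (adjusted p = 0.545).

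Genes tied to Nfe2l2 did not pass at the top dose either. Nqo1, a quinone reductase induced through antioxidant response elements, was 0.38 ± 0.16 above vehicle (adjusted p = 0.523) and Hmox1, the haem oxygenase, 0.29 ± 0.15 above (adjusted p = 0.675). They belong to a list of other conjugation, hydrolysis and reduction enzymes in which 18 of 26 were above vehicle, with a median of 0.11. Of the sensors and regulators 5 of 7 were above at that dose, with Nfe2l2 itself at 0.15 ± 0.12 (adjusted p = 0.825). Mafg, a small Maf partner of Nfe2l2, had the lowest p of these regulators and lay below vehicle, at -0.26 ± 0.13 (adjusted p = 0.627). Of 16 measured P450 genes and their partners 9 were above, and 11 listed P450 genes, Cyp1a1 and Cyp2e1 among them, were too dim to test. Cyp3a9 had the lowest p of that list, at -0.38 ± 0.19 (adjusted p = 0.637).

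Between the vehicle groups 3 of the 79 passed the F test, as did 7.8% of all probe sets. Maoa, the monoamine oxidase, averaged 9.53 in C and 10.22 in B, against 9.71 in A (adjusted p = 0.00694), and C differed from B by -0.69 ± 0.15 (adjusted p = 0.00307). Dpep1, a dipeptidase of glutathione breakdown, averaged 7.90 in C and 7.48 in B, against 7.42 in A (adjusted p = 0.0404). Mafg averaged 9.01 in C and 9.50 in B, against 9.28 in A (adjusted p = 0.0427). Experiment and any handling that went with it cannot be told apart in these comparisons.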

How the data were processed

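Expression was measured in frontal lobe of 46 rats on the Affymetrix RAE230A array. The deposited values were linear signal intensity, 1 value per probe set and array, with the software the authors summarised them by not given in the sources used here. From the values alone, most arrays look scaled to a common trimmed mean, with a median of 499.8 over the used arrays. The 5 mg/kg array of B, at 205.2, and the unused A vehicle 1, at 366, were not at that level. The deposited columns of 7 arrays correlated between -0.0068 and 0.0025 with the 39 others, so they were left out: A vehicle 1, A 1 mg/kg 4, A 50 mg/kg 1, B 0.5 mg/kg 1, C 5 mg/kg 2, and C 30 mg/kg 1 and 2. Animals were grouped by experiment and dose from the titles, which number each animal, so p-values measure the spread between animals within these 3 experiments. The number of arrays limits the precision.

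Intensities were scaled to equal medians, raised to a floor at the 5th percentile (10.72 units), log2 transformed and quantile normalised. The 57 control probe sets were removed, and of 15866 probe sets the 11106 with a mean above the 30th percentile were tested, over 8003 genes. Symbols came from the platform annotation: 12783 probe sets had 1 symbol, 312 several and 2771 none. limma 3.58.1 in R 4.3.3 fitted experiment plus dose, with a trended prior variance, and a second fit with a mean per experiment and dose gave within-experiment differences, vehicle differences and differences between experiments A and C. P-values were adjusted by Benjamini-Hochberg over all 11106 probe sets at 0.05. Where a gene of another list had several probe sets, the one with the highest mean stood for it. The procedure was first tested on simulated data. Figures used Python 3.11.15, numpy 2.4.6 and matplotlib 3.10.9.

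The members and the gene lists were chosen with earlier results of these data known. All member probe sets are described. From other lists up to 4 genes are named, those past the threshold and then those of lowest p, and the 3 most similar genes of each member by Pearson correlation. Same-numbered animals of different groups did not deviate together, with median correlations of -0.0046, -0.0083 and 0.02 in A, B and C, so numbers were not treated as pairs. Alternatives covered scaling, floor, filter, prior, array weights, the replicate block, arrays labelled as a first repeat, the dim 5 mg/kg array, each experiment and each animal. Leaving the array of high actin ratio out of the similarity search was chosen after seeing the data. Sequences are RefSeq, build GRCr8.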

Additional observations from a re-analysis of the deposited data

Results flagged for a closer look

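Mgst1 in B vehicle animal 1, at 7.81, stood apart from the other 3 vehicle animals of B, with a gap of 0.864 of the group's range, above the critical value of Dixon's test for 4 animals. Gstm5 in A 10 mg/kg animal 4, at 10.75, stood apart from the other 4 animals, with a gap of 0.715, above the critical value for 5 animals. Of 40 groups of at least 4 animals tested over the member probe sets, these 2 met the criterion, and chance alone gives about 1 in 20.

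Gstm1 at 1 mg/kg was above vehicle in every animal of experiment A and below vehicle in every animal of C. Of all probe sets 4.79% were wholly above in A, 2.21% wholly below in C and 0.459% separated in opposite directions. The lowest C animal is the array with the high actin ratio, and each side rests on 1 vehicle group of 3 animals. The difference of the 2 changes was 0.67, with a limma adjusted p of 0.387, and did not pass.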

How the results depend on the processing

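At 50 mg/kg the count of probe sets past the threshold was 2, and it was 1 with median scaling alone, 0 without a filter, 1 with the 50th percentile filter, 13 with array weights, 0 with the replicate block, 0 without experiment B, 66 without C and 4 with group means within experiments. At 0.5 mg/kg the count of 0 became 2 without a filter. At 30 mg/kg it became 10 without a filter, 19 with array weights, 1 without A and 6 without C. For the trend it became 3 with array weights, 1 without A, 1 without B and 100 without C, and for any dose 5 with array weights and 19 without C. Between vehicle groups 866 became 1526 with array weights, 540 without first repeats, 70 without B and 148 without C. The count of member calls, added over the tests, was 0. It became 1 with array weights (Mgst3 between vehicle groups) and 2 without C, both of them Mgst1 (at 50 mg/kg, 1.00, and at any dose). Mgst3 between C and A vehicle animals passed with array weights (-0.47, adjusted p = 0.0189) and without any 1 of 4 animals of C (adjusted p between 0.036 and 0.0484), and was -0.29 (adjusted p = 0.309) without C vehicle animal 1. The cause of these shifts was not tested.

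With each animal left out, counts ran from 0 to 5 at 0.5 mg/kg, 0 to 4 at 30 mg/kg and 0 to 5 at 50 mg/kg. They ran from 0 to 2 for the trend, 0 to 1 for any dose and 292 to 1136 between vehicle groups. For the A and C difference at 10 mg/kg they ran from 0 to 2, and for member calls from 0 to 1. Por 1387109_at at 50 mg/kg (0.05) ran from -0.00084 without A vehicle animal 4 to 0.11, and Gstm5 at 50 mg/kg (0.15) from -0.0067 without A 50 mg/kg animal 3 to 0.28. Of 1077 recomputed values of 21 named member results, these 2 changed sign. Of the other 79 member results 54 of 972 values under other settings and 149 of 3081 with an animal left out changed sign. With an animal left out, values at 50 mg/kg ran from 0.82 to 1.00 for Mgst1, 0.08 to 0.38 for Gsta4 and 0.26 to 0.55 for Gstm2. They ran from 0.09 to 0.23 for Gstm1, 0.00043 to 0.18 for Gstp1 and 0.01 to 0.18 for Ephx1. For Mgst3 they ran from -0.17 to -0.02 and for Por 1368213_at from -0.19 to -0.01.

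The replicate block, whose numbers did not pair the animals, called 0 members and 0 probe sets at 50 mg/kg. It could not be fitted for vehicle groups or differences between experiments, and group means could not be fitted for the trend or any dose. Background correction and scan blocks need scanner files, which were not used here. Probe sets at the floor, Gstt1 among them, carry no usable difference.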
